A study of Homo sapiens with 24 samples.

Results

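The 10 genes described here encode chaperones and folding enzymes of the endoplasmic reticulum together with XBP1, a transcription factor that governs many of them. They are HSPA5, HSP90B1, PDIA4, PDIA6, DNAJB9, HERPUD1, XBP1, SDF2L1, CALR and CANX. They were taken by name from 27431 gene symbols in 3 genome-wide expression tables, after RefSeq entries had been mapped to symbols and the values of a symbol's entries added up. RNA was sequenced from HER2-positive human breast carcinoma lines after knockdown of TFAP2C, which encodes the transcription factor AP-2gamma. SKBR3 cells received siRNA against TFAP2C or a non-targeting siRNA by lipid transfection, and HCC1954 cells were treated with the same pair of siRNAs, with 72 to 96 h of incubation. Stable HCC1954 clones carried either a lentiviral shRNA against TFAP2C or a control shRNA, and how many clones were used is not stated. HCC1569 cells received the siRNA pair, and the table for that line holds 68 selected entries. Each of these 8 groups had 3 samples, below passage 10, and the labels state that the lines were not authenticated. The authors pooled the samples of a group into 1 value in FPKM (fragments counted per transcript length and sequencing depth), so no replicate spread of a level can be given and the depth is unknown. The labels do not say whether the 3 samples came from separate cultures, so the deposited p-values may measure technical spread alone.

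The endoplasmic reticulum folds proteins that are secreted or placed in membranes. When unfolded proteins build up there, the sensors ATF6, IRE1 (gene ERN1) and PERK (gene EIF2AK3) raise folding capacity, slow translation and increase the removal of misfolded proteins, a programme called the unfolded protein response. ATF6 acts with NF-Y on a promoter element of many chaperone genes, and IRE1 cuts a short intron out of the XBP1 messenger RNA, which then encodes the active factor. XBP1 is abundant in luminal breast cells and in secretory cells generally.

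The element bound by ATF6 and NF-Y, the endoplasmic reticulum stress element (ERSE), stands in 6 of the 10 promoters, and a related short form (ERSE-II) stands in 2 more. ERSE was searched as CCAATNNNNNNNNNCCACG and ERSE-II as ATTGGNCCACG, on both strands of RefSeq promoter windows from 250 bases before to 50 bases after each transcription start (GRCh38.p14). The matches are printed 5′ to 3′ on the strand of the gene with the matched letters in capitals. A run beginning CGTGG is the reverse complement of the element.
HSPA5: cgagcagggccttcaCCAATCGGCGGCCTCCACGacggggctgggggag
HSP90B1, distal match: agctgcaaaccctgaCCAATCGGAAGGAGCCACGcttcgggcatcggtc
HSP90B1, proximal match: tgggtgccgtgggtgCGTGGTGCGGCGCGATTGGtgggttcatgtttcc
PDIA6: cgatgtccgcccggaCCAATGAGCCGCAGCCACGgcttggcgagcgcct
XBP1: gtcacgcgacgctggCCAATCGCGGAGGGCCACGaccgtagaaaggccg
CALR: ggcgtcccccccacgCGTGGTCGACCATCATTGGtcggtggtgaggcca
CANX: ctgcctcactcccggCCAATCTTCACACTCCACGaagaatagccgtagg
HERPUD1, ERSE-II: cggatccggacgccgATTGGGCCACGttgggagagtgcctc
SDF2L1, ERSE-II: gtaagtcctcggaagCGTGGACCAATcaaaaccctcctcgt

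The HSPA5 stretch lies at chr9:125241376-125241424 on the minus strand, and its element ends 48 bases before the start site. For HSP90B1 the stretches are chr12:103930201-103930249 and chr12:103930306-103930354 (plus strand), and for CALR chr19:12938369-12938417 (plus strand). PDIA6 has its stretch at chr2:10812838-10812886 (minus strand), in the second of its 2 windows. The XBP1 stretch is chr22:28800588-28800636 (minus strand), with the element 34 bases before the start, and the CANX stretch is chr5:179698763-179698811 (plus strand). HERPUD1 has ERSE-II at chr16:56932010-56932050 and SDF2L1 at chr22:21642099-21642139, both on the plus strand. Over all windows ERSE occurred in 25 of 27305 genes (0.0916%) and ERSE-II in 19 (0.0696%). These elements were first described in chaperone promoters, so their presence here is background and not a finding of these data. CCAAT alone, which is also the first part of ERSE, was in all 10 promoters and in 39.7% of genes. The core of the XBP1 element, TGACGTGG, was in none of the 10 windows and in 0.927% of genes. GCCNNNGGC, the half-site pair known to be bound by AP-2 factors, was in 6 of the 10 (PDIA4, PDIA6, DNAJB9, XBP1, CALR and CANX) and in 26.6% of genes. A match is a run of letters and not an observed binding site.

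XBP1 is shown with its unconventional intron because the table lists the unspliced and the spliced messenger as separate entries. The 26 bases that IRE1 removes are in capitals, with 25 bases of exon on each side, at chr22:29192090-29192165 on the minus strand of GRCh37. The annotated gap can lie at 7 positions that give the same spliced messenger, and it is drawn 1 base downstream of the annotation, at the cut known for IRE1.
XBP1 intron: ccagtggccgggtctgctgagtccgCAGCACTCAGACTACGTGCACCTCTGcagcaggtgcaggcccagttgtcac

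The target of the knockdown was lower in each comparison. TFAP2C had 53.9 FPKM in SKBR3 cells with TFAP2C siRNA against 157 with non-targeting siRNA, a 2.92-fold lower level. In HCC1954 it had 21.98 FPKM with TFAP2C siRNA and 92.4 with non-targeting siRNA, and 3.46 FPKM in TFAP2C shRNA clones against 81.0 in control shRNA clones, or 4.2-fold and 23.4-fold lower. The summed level of 7 epithelial and HER2 markers was 6254 FPKM with TFAP2C siRNA and 7601 with non-targeting siRNA in SKBR3, 8378 and 9087 in HCC1954 siRNA cells, and 1950 against 3803 in the TFAP2C and control shRNA clones. At a q-value under 0.05 in the authors' deposited table, 2 of 6 tested markers fell in SKBR3 and 1 rose. Of all tested genes 21.0% fell and 12.3% rose there. ERBB2, the HER2 gene, had 609.5 FPKM in knockdown cells and 1109 in controls (log2 -0.86). KRT19 had 1297 and 2135 (log2 -0.72), and EPCAM 139 and 105 (log2 0.41). The part of these markers in the results for SKBR3 was not tested. CDH1, which encodes E-cadherin, was near 0 in SKBR3, at 0.0970 FPKM with TFAP2C siRNA and 0.0894 with non-targeting siRNA. Of 8 markers of immune, endothelial and stromal cells, 7 were under 1 FPKM in both SKBR3 groups, 5 in both HCC1954 siRNA groups and 5 in both shRNA groups. Their summed level was 37.5 FPKM with TFAP2C siRNA and 30.1 with non-targeting siRNA in SKBR3, 29.8 and 36.5 in the HCC1954 siRNA groups, and 6.39 in TFAP2C shRNA clones against 18.1 in control clones. The T cell marker CD3E, the B cell marker MS4A1 and the leukocyte marker PTPRC were under 1 FPKM in every group. The TFAP2C shRNA group stood apart from the other 3 HCC1954 groups. In it 162 genes were under 1 FPKM while at or above 10 FPKM in each of the other 3, against 0 such genes for either siRNA group and 12 for the control shRNA clones. The reverse pattern, at or above 10 FPKM in 1 group alone and under 1 FPKM in the others, held for 114 genes in the TFAP2C shRNA clones, 75 with TFAP2C siRNA, 59 with non-targeting siRNA and 7 in control shRNA clones. The keratin KRT7 had 0.550 FPKM in TFAP2C shRNA clones against 639.5 in control clones, and 1708 and 1740 FPKM with TFAP2C and non-targeting siRNA. The endothelial marker PECAM1 had 0.0180 FPKM in TFAP2C shRNA clones against 11.6 in control clones, and 18.5 and 27.0 FPKM in the siRNA groups. TMX3, a disulfide isomerase chosen here after its values were seen, had 18.1 FPKM in TFAP2C shRNA clones and was listed at 0 in the other 3 groups. Whether all these cells are 1 line was not tested, and every shRNA ratio rests on this group, with no other group to take its place. In sequencing of bulk cells, fewer cells of a kind and less RNA per cell cannot be told apart.

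All 10 genes were expressed well above the middle of the transcriptome in the 2 siRNA controls. FPKM is a level per transcript length, so genes can be set side by side. In SKBR3 with non-targeting siRNA, XBP1 was the most abundant of the 10 at 848 FPKM, followed by CANX at 449, CALR at 414, HSPA5 at 311 and HSP90B1 at 254 FPKM, apart from a further 377 FPKM assigned to the pseudogene of HSP90B1. PDIA6 (161 FPKM), HERPUD1 (127 FPKM), PDIA4 (108 FPKM), DNAJB9 (68.5 FPKM) and SDF2L1 (48.3 FPKM) completed the order. Without replicate values it cannot be said which neighbours in that order differ beyond their spread. In that control 85.5% of the genes with at least 1 FPKM lay below SDF2L1, the lowest of the 10, and 99.5% lay below XBP1. In the shRNA control the lowest were DNAJB9 at 9.05 FPKM, with 41.0% of genes below it, and HERPUD1 at 10.54 FPKM, with 45.2% below it.

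**Figure D1:**
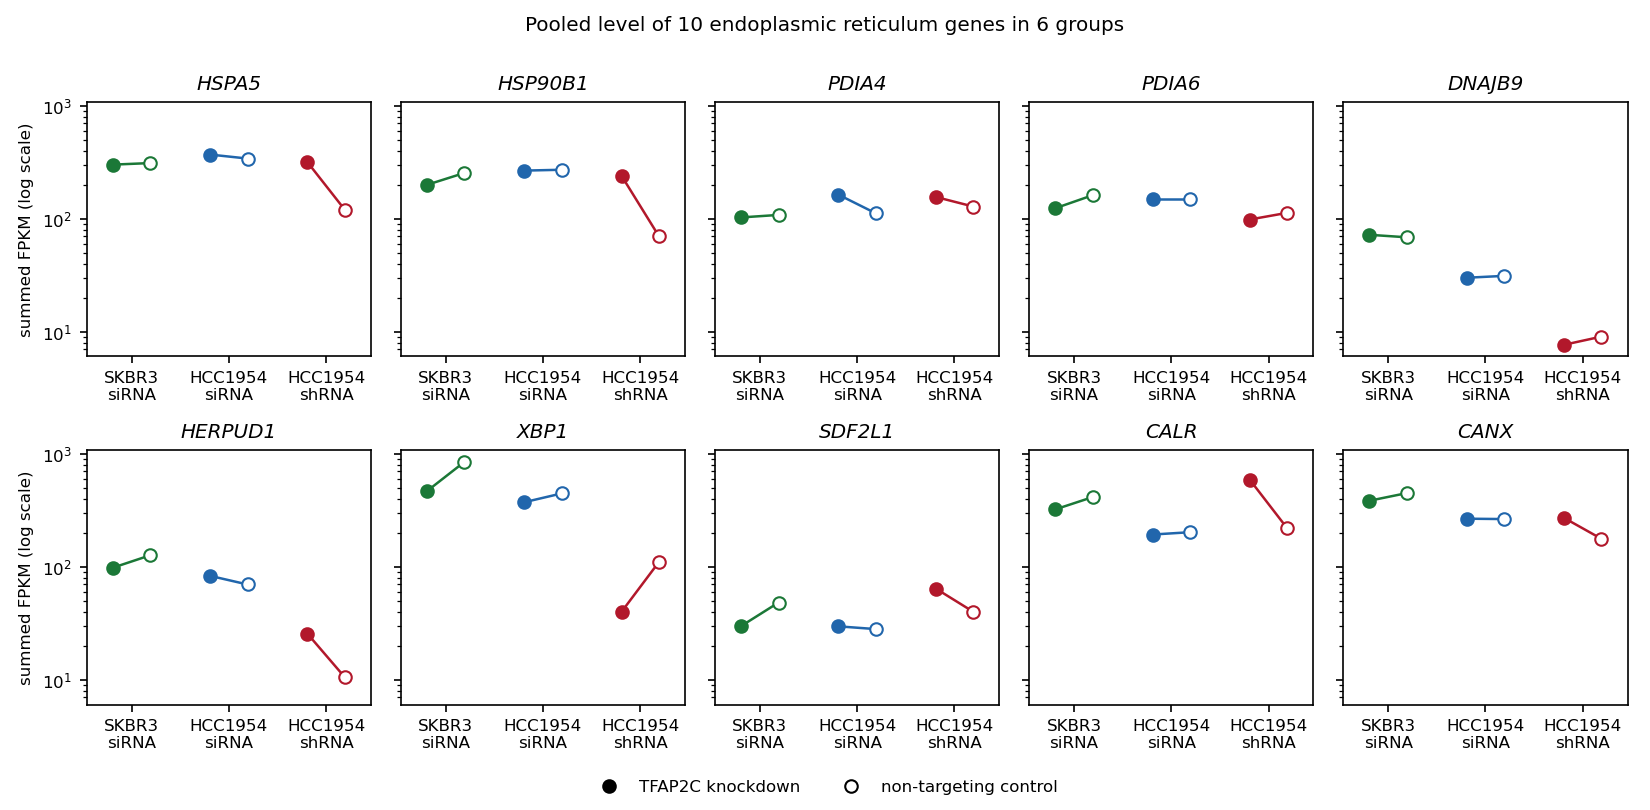
Level of each of the 10 genes in 6 groups, as FPKM summed over its RefSeq entries on a log axis, with the TFAP2C knockdown (filled) left of its non-targeting control (open). Each point is the authors' pooled value of 3 samples, so no error bars can be drawn, and XBP1 is the gene whose knockdown point lies below its control point by the most in SKBR3 (468 against 848 FPKM).

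In SKBR3, TFAP2C siRNA was accompanied by lower levels of 6 of the 10 genes, and none was called higher. The falls were led by XBP1 and by SDF2L1, a small luminal co-chaperone that works with HSPA5. The HSPA5 messenger itself, for the central Hsp70-type chaperone of the compartment (BiP), was 301 FPKM in knockdown cells and 311 FPKM in controls. A gene was called when the q-value of its leading RefSeq entry, the one with the most FPKM on average across the 6 groups, was under 0.05 in the authors' deposited table. By that rule 21.0% of the 9903 genes tested in SKBR3 fell, 12.3% rose and 33.3% were called in either direction. The median log2 ratio of knockdown over control was -0.35 for the 10 genes and -0.08 over 11650 genes at or above 1 FPKM in knockdown and control alike.

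XBP1 had 468 FPKM in SKBR3 with TFAP2C siRNA, against 848 FPKM in controls, a log2 ratio of -0.86 with a 95% interval of -1.26 to -0.45. SDF2L1 had 29.9 FPKM with TFAP2C siRNA and 48.3 FPKM in controls, a log2 ratio of -0.69 with an interval of -1.19 to -0.19. Both had q = 4.41e-04 in the authors' deposited table, and both intervals lay below 0. HSP90B1, the Hsp90-type chaperone GRP94, had 199 FPKM in knockdown cells against 254 in controls, and the calcium-binding lectin chaperone calreticulin (CALR) had 322 FPKM against 414. PDIA6, a disulfide isomerase, had 124 FPKM in knockdown cells and 161 in controls. HERPUD1, a membrane protein of the degradation machinery, had 98.3 FPKM in knockdown cells and 127 in controls over all its entries. The log2 ratios of these last 4, each from the leading entry, ran from -0.38 to -0.35, and their q from 8.23e-04 to 0.00431 in the authors' deposited table. They were therefore smaller and closely alike, and for HSP90B1, PDIA6 and CALR the 95% interval taken from the deposited statistic included 0.

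The other 4 genes did not pass the test in SKBR3. PDIA4, another disulfide isomerase, had 103 FPKM in knockdown cells and 108 in controls (log2 -0.08, interval -0.42 to 0.27). DNAJB9, a DnaJ co-chaperone of HSPA5 known to restrain IRE1, had 72.0 FPKM against 68.5 (log2 0.07, interval -0.36 to 0.51). CANX, the membrane-bound lectin calnexin, had 384.5 FPKM against 449 over all entries. HSPA5 had a log2 ratio of -0.05 (interval -0.44 to 0.35). The intervals of these genes overlap those of the 4 genes with the smaller falls, so the split between called and uncalled genes in SKBR3 is not a measured difference between them.

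With the same siRNA in HCC1954, only PDIA4 was called of the 10. It rose to 163 FPKM in cells with TFAP2C siRNA, against 112 FPKM with non-targeting siRNA, a log2 ratio of 0.55 with q = 0.00425 in the authors' deposited table. Its 95% interval from the deposited statistic ran from -0.03 to 1.13. Of 10773 genes tested, 3.28% were called, 2.31% as rises and 0.965% as falls, and 1 call among 10 genes is not read as more than that background. The median log2 ratio of the 10 genes was 0.01, beside -0.01 over 12337 genes, and their summed level was 1925 FPKM in knockdown cells and 1915 FPKM in controls.

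Apart from PDIA4, the levels in HCC1954 with siRNA lay close together. HSPA5 had 369 FPKM in knockdown cells and 340.5 in controls, HSP90B1 266 and 271, and CALR 193 and 202.5. PDIA6 was at 149.8 FPKM in both groups, DNAJB9 at 30.0 against 31.2 and SDF2L1 at 29.8 against 28.1. CANX stood at 267 FPKM in knockdown cells and 265 in controls over all entries. XBP1 had 373 FPKM in knockdown cells and 446 in controls (log2 -0.26, interval -0.87 to 0.35). Its unadjusted p was 0.0442 and its q 0.511 in the authors' deposited table. HERPUD1 had 83.2 FPKM against 69.8 over all entries, and its leading entry alone had a log2 ratio of 0.80 with an interval of -2.27 to 3.87.

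In the stable HCC1954 clones 9 of the 10 genes were called, 7 as higher and 2 as lower in TFAP2C shRNA clones than in control shRNA clones. The largest rises in summed FPKM were those of HSP90B1, CALR and HSPA5. XBP1 and PDIA6 fell. In that comparison 75.4% of 9564 tested genes were called, 36.3% as rises and 39.2% as falls, so a call is the usual state of a gene there. The median log2 ratio of the 10 genes was 0.65, beside 0.00 over 11309 genes, and their summed level was 1809 FPKM in TFAP2C shRNA clones and 997.5 FPKM in control clones.

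HSP90B1 had 239.6 FPKM in TFAP2C shRNA clones against 69.9 in control clones, 3.43-fold higher (log2 1.78, interval 1.55 to 2.01). HSPA5 had 316.5 FPKM against 119.9, 2.64-fold higher (log2 1.40, interval 1.19 to 1.61). CALR had 589.6 FPKM against 219, 2.69-fold higher (log2 1.43, interval 1.22 to 1.64). These 3 messengers for the abundant luminal chaperones rose by similar factors, and each had q = 1.21e-04 in the authors' deposited table. SDF2L1 rose to 64.3 FPKM in TFAP2C shRNA clones, against 40.1 in control clones (log2 0.68), and PDIA4 to 156 FPKM, against 128 (log2 0.28). CANX rose to 271 FPKM over all entries in TFAP2C shRNA clones, against 177 in control clones. HERPUD1 had 25.6 FPKM against 10.54 over all entries, 2.43-fold higher. The intervals of SDF2L1 (0.20 to 1.17) and PDIA4 (0.06 to 0.50) lay above 0. Those of the leading entries of CANX (-0.33 to 1.10) and HERPUD1 (-2.57 to 8.58) included 0.

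XBP1 fell to 40.0 FPKM in TFAP2C shRNA clones, against 110.5 FPKM in control clones, a 2.76-fold lower level. Its leading entry had a log2 ratio of -1.53 with an interval of -1.98 to -1.09. PDIA6 fell to 98.4 FPKM, against 113, a log2 ratio of -0.20 whose interval from the deposited statistic reached 0.05 for the leading entry. DNAJB9 was low in both groups, with 7.66 FPKM in TFAP2C shRNA clones and 9.05 in control clones (log2 -0.24, q = 0.0910 in the authors' deposited table). XBP1 and the chaperones HSPA5, HSP90B1 and CALR therefore lay on opposite sides of 0 in these clones.

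**Figure D2:**
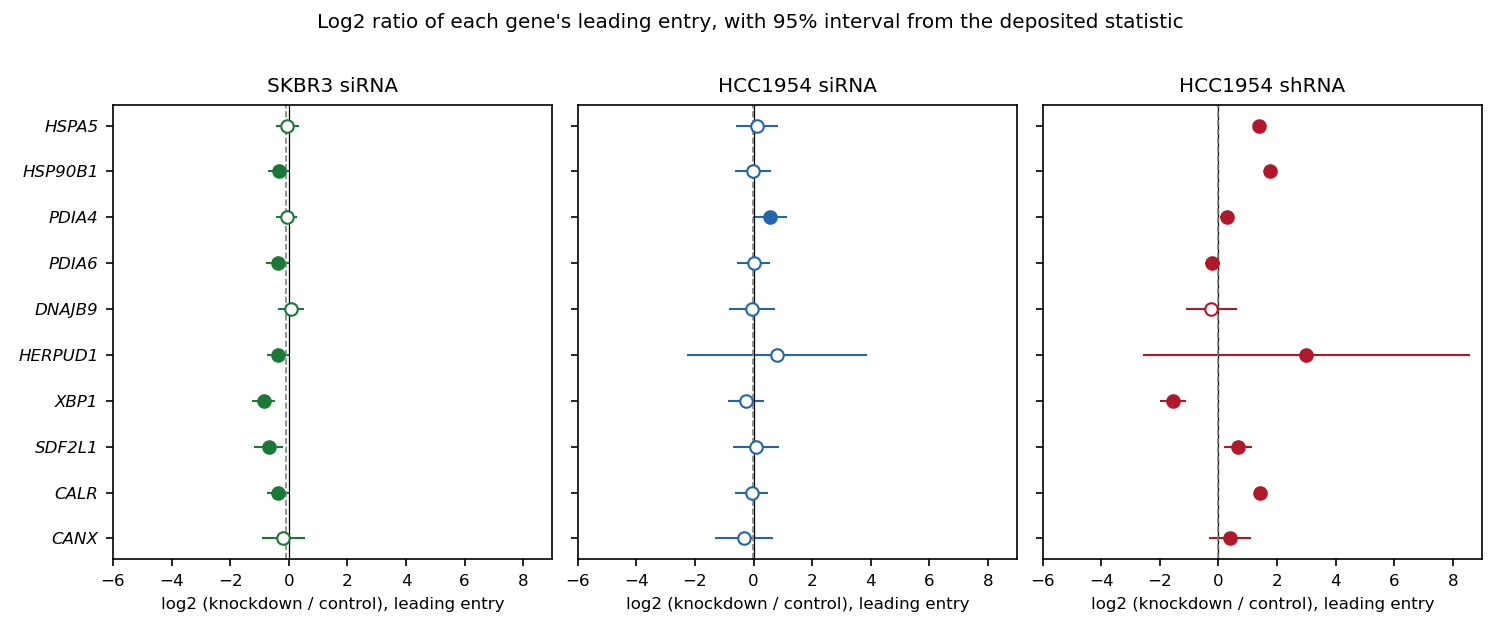
Log2 ratio of knockdown over control FPKM for the leading RefSeq entry of each gene, with its 95% interval from the deposited statistic, in 3 panels for SKBR3 siRNA, HCC1954 siRNA and HCC1954 shRNA. Filled points have a deposited q under 0.05, the dashed line is the median of genes at or above 1 FPKM in knockdown and control, and the points of HSPA5, HSP90B1 and CALR stand apart from 0 on the right in the shRNA panel, where XBP1 stands on the left at -1.53.

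None of the 10 genes was called in all 3 comparisons. Only 3.28% of all tested genes were called with siRNA in HCC1954, so this count is not read as a result about the 10 genes. Called both in SKBR3 siRNA cells and in the HCC1954 shRNA clones were 6 genes, beside 28.1% of the 8446 genes tested in both. These are 6 of the 6 called in SKBR3 and 6 of the 9 called in the clones, beside 82.9% and 37.6% over all genes called. HSP90B1, HERPUD1, SDF2L1 and CALR fell in SKBR3 and rose in the clones, while XBP1 and PDIA6 fell in both. Of all genes called in both, 57.1% moved in opposite directions, so 4 of 6 is not read as more than that background. No samples are shared between these comparisons. Comparisons were set against each other by a z value, in which 2 log2 ratios are subtracted and divided by their combined standard error, each error being the log2 ratio over the statistic in the authors' deposited table. The p-values were two-sided and adjusted over all genes compared by the method of Benjamini and Hochberg.

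Between the shRNA clones and the siRNA cells of HCC1954, 4 of the 10 ratios differed by that test, beside 13.8% of 8634 genes. From the authors' statistics, HSP90B1 had the larger ratio in the clones by 1.80 log2 units (1.78 in clones, -0.02 with siRNA, adjusted p = 4.36e-06), CALR by 1.50 (1.43 and -0.07, adjusted p = 4.48e-05) and HSPA5 by 1.28 (1.40 and 0.12, adjusted p = 0.00711). XBP1 had the lower ratio in the clones, with a difference of -1.28 from the authors' statistics (-1.53 in clones, -0.26 with siRNA, adjusted p = 0.0104). With standard errors from the deposited p, CANX and SDF2L1 were called as well, making 6 of the 10, beside 49.3% of genes. For PDIA4, the only gene called with siRNA in HCC1954, the difference was -0.27 with an interval of -0.89 to 0.36. The clones and the transfected cells differ in hairpin and siRNA, in delivery, in the length of the knockdown, in being clones and in the genes at which the TFAP2C shRNA group stood apart, and these cannot be told apart. Markers of cell identity also moved in the clones: KRT7 was 1163-fold lower with TFAP2C shRNA, ERBB2 had 20.8 FPKM in TFAP2C shRNA clones and 1525 in control clones, CDH1 20.7 and 149 FPKM, and KRT19 634 and 19.95 FPKM. Of the 7 epithelial and HER2 markers, 5 fell (ERBB2, CDH1, KRT7, KRT8 and KRT18) and 2 rose (KRT19 and EPCAM). These counts stand beside 39.2% of all tested genes falling and 36.3% rising in the clones. The fall of KRT8 was small, with 807 FPKM in TFAP2C shRNA clones and 898 in control clones. The part of these markers in the result was not tested.

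Between SKBR3 and HCC1954 cells given the same siRNA, the z test called 0 of the 10 differences, beside 0.505% of 8907 genes, and the smallest unadjusted p was 0.0715, for PDIA4. The SKBR3 minus HCC1954 difference was -0.60 for XBP1 (interval -1.33 to 0.13), -0.77 for SDF2L1 (interval -1.71 to 0.17) and -0.62 for PDIA4 (interval -1.30 to 0.05). Intervals of this width allow differences of more than 1 log2 unit. When the standard error came from the p in the authors' deposited tables, PDIA4 (adjusted p = 0.00312) and SDF2L1 (adjusted p = 0.0160) were called, beside 12.4% of genes. The deposited p and the deposited statistic do not follow from each other by a normal test. In the median entry the normal quantile of p exceeded the statistic by a factor of 1.99 in the SKBR3 siRNA table, 2.46 in the HCC1954 siRNA table and 2.88 in the shRNA table. In the same order of tables, 95% intervals from the statistic included 0 for 3 of 6, 1 of 1 and 3 of 9 called genes of the 10. Over all called entries the shares were 47.3%, 60.7% and 52.85%.

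HSP90B1 has a near-identical pseudogene, HSP90B2P, to which the tables assign a large share of the signal. The pseudogene had 288 FPKM in SKBR3 with TFAP2C siRNA and 377 in controls, 62.4 and 64.9 FPKM in HCC1954 with TFAP2C and non-targeting siRNA, and 398 FPKM in TFAP2C shRNA clones against 123 in control clones. It held 59.1% of the pair's summed FPKM in SKBR3 knockdown cells and 59.8% in their controls, 19.0% and 19.3% in the HCC1954 siRNA groups, and 62.4% and 63.7% in the shRNA groups. The split was thus nearly equal within a table and unlike between tables, so HSP90B1 levels are uncertain and should not be set beside each other across tables. Added together, the pair had 488 FPKM in SKBR3 knockdown cells against 631 in controls, 329 against 336 in HCC1954 siRNA cells, and 637 against 193 in the shRNA clones. The log2 ratios of the sum were -0.37, -0.03 and 1.73, beside -0.35, -0.02 and 1.78 for HSP90B1 alone, so each ratio within a table was nearly the same with and without the copy.

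**Figure D3:**
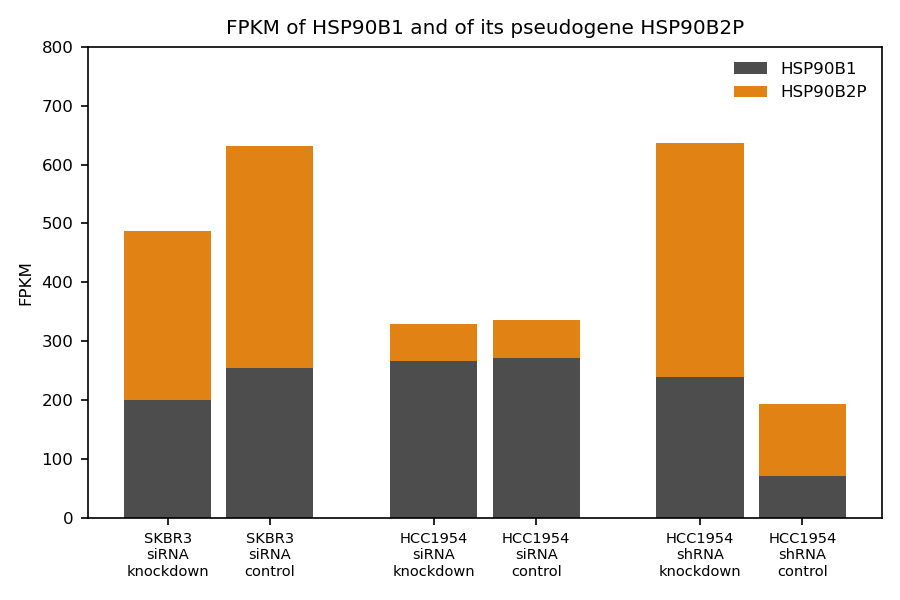
FPKM of HSP90B1 (dark) and of its pseudogene HSP90B2P (orange), stacked, in 6 groups with each knockdown left of its control, as pooled by the authors. The pseudogene makes up about the same part of both bars of a pair, 62.4% and 63.7% in the shRNA clones, and a smaller part in the HCC1954 siRNA groups.

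Several of the genes have more than 1 RefSeq entry, 28 in all, and the entries of a gene share reads. HSPA5, HSP90B1, PDIA4, DNAJB9, SDF2L1 and CALR have a single entry each, and HERPUD1 has 3. In SKBR3 its entry NM_014685 carried 97% of the FPKM in knockdown cells and 97.97% in controls. In HCC1954 with siRNA the same entry carried 72.5% in knockdown cells and 49.6% in controls, and in the shRNA clones 51.4% with TFAP2C shRNA and 15.6% with control shRNA. NM_014685 had 13.2 FPKM in TFAP2C shRNA clones against 1.64 in control clones (q = 0.00246 in the authors' deposited table), while NM_001010989 had 12.3 FPKM against 7.86 (q = 0.208 in the authors' deposited table). The call of HERPUD1 in the clones therefore rests on the entry used, and with the leading entry chosen within that comparison it is not called.

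CANX divides its signal over 2 main entries. In the shRNA clones NM_001363996 had 107 FPKM with TFAP2C shRNA and 81.9 with control shRNA, and NM_001364001 had 142 FPKM against 88.8. Both were called as rises, with q = 3.49e-04 and 1.21e-04 in the authors' deposited table. In HCC1954 siRNA cells the sum hardly differed, at 267 FPKM in knockdown cells and 265 in controls, although NM_001363996 had 155 FPKM against 195 and NM_001363998 had 47.9 against 22.1. No CANX entry was called there.

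XBP1 rests almost entirely on the entry of the unspliced messenger, NM_005080. The entry of the spliced messenger, NM_001079539, lacks the 26 bases printed in capitals and had 0.0114 FPKM in SKBR3 knockdown cells and 0.00776 in controls, 0.00747 and 0.00366 FPKM in HCC1954 with TFAP2C and non-targeting siRNA, and 1.88 FPKM in TFAP2C shRNA clones against 0.161 in control clones. In the clones that is 4.71% of XBP1 FPKM with TFAP2C shRNA and 0.146% with control shRNA. The authors' table did not test this entry in any comparison. Whether the alignment could place reads across a gap of 26 bases is not stated, so these values are not a measure of splicing.

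**Figure D4:**
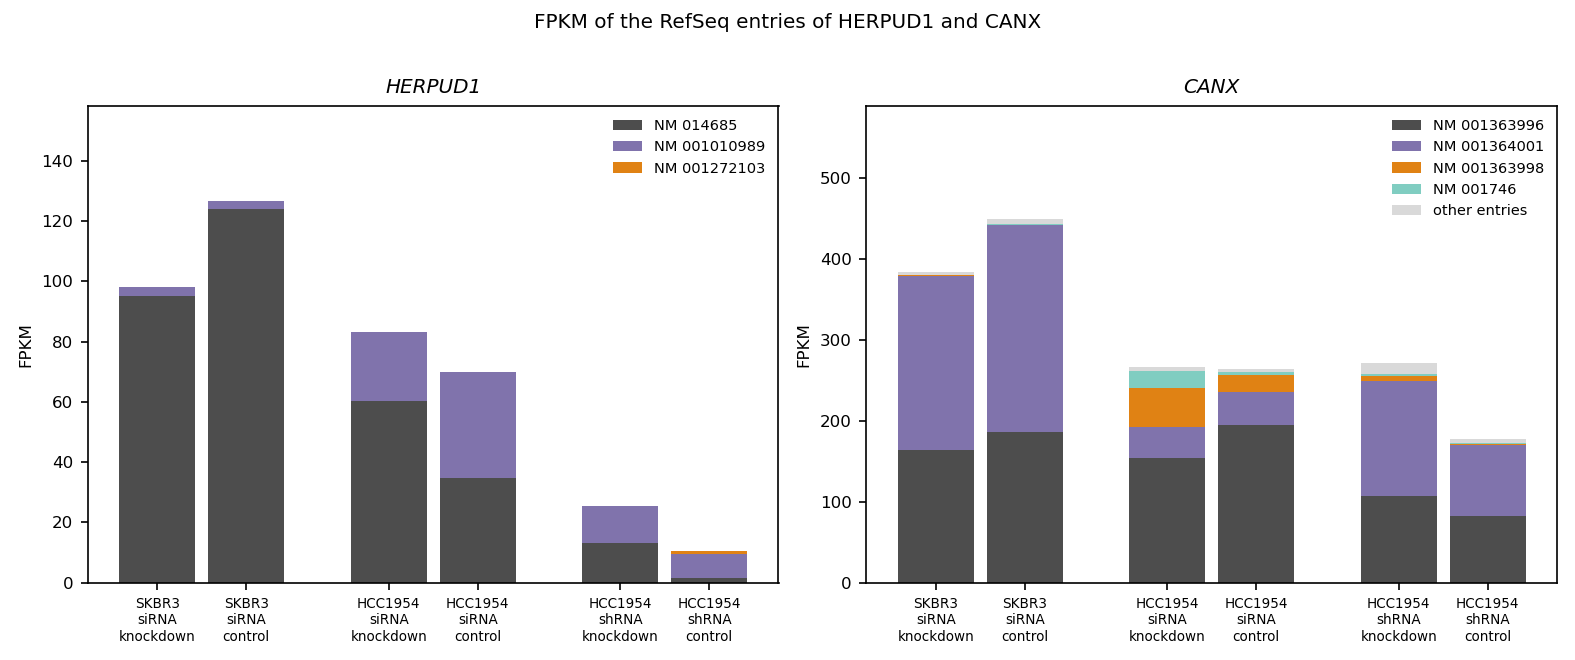
FPKM of the RefSeq entries of HERPUD1 (left) and CANX (right), stacked, in 6 groups with each knockdown left of its control, as pooled by the authors. For HERPUD1 the dark segment is NM_014685, 13.2 FPKM in TFAP2C shRNA clones and 1.64 FPKM in control clones, and for CANX the height of the HCC1954 siRNA bars is about equal while their segments differ.

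Exons that overlap another gene add a further uncertainty, since strand use in the counting is not stated. PDIA6 shares 25.2% of its exonic bases (GRCh37, GENCODE) with ATP6V1C2 on the opposite strand. ATP6V1C2 had 15.8 FPKM in SKBR3 knockdown cells and 32.3 in controls, beside 124 and 161 FPKM for PDIA6. Both were lower in knockdown cells, and how far shared reads enter the PDIA6 fall was not tested. For CALR the share was 9.64%, for HSP90B1 6.15% with UQCC6 and for CANX 4.64% with CBY3.

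The levels in control cells differed between the HCC1954 tables, which were normalized separately. HSPA5 had 119.9 FPKM in control shRNA clones and 340.5 in cells with non-targeting siRNA, a log2 ratio of -1.51, and XBP1 had 110.5 against 446 FPKM, a log2 ratio of -2.01. The ratio was -2.73 for HERPUD1 and -1.79 for DNAJB9, and lay between -0.58 and 0.51 for PDIA4, PDIA6, SDF2L1, CALR and CANX. HSP90B1, whose split with its pseudogene differs between the tables, was compared as the sum of the pair, with 193 FPKM in control shRNA clones and 336 in cells with non-targeting siRNA. The median was -0.69 over the 10 genes, with the pair in place of HSP90B1 alone, and 0.04 over 11679 genes. Set against the non-targeting siRNA cells instead, TFAP2C shRNA clones had log2 ratios of -0.11 for HSPA5, 1.54 for CALR and -3.48 for XBP1. The HSPA5 level of the TFAP2C shRNA clones was thus near that of siRNA control cells, while that of the control clones was lower. The pair of HSP90B1 and its pseudogene had 637 FPKM in TFAP2C shRNA clones, above the 336 FPKM of siRNA control cells. No test can be made across tables, and a difference of library, clone or normalization cannot be told apart. SKBR3 with non-targeting siRNA had more of most of these messengers than HCC1954 with non-targeting siRNA, with a median log2 ratio of 0.82 for the 10 genes, again with the pair in place of HSP90B1 alone, and -0.06 over 11038 genes. DNAJB9 (1.13), CALR (1.03) and XBP1 (0.93) had the largest ratios.

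Other genes of the same compartment were described from lists grouped by role. Their counts stand beside 21.0% of tested genes falling and 12.3% rising in SKBR3, and 39.2% falling and 36.3% rising in the shRNA clones. With siRNA in HCC1954, 0.965% of tested genes fell and 2.31% rose. Lists with 0 or 1 call there are not read as differing from that background. Of 14 further chaperones and co-chaperones tested in SKBR3, 9 fell and 1 rose, with a median log2 ratio of -0.33 beside -0.08 for all genes. DNAJB11, a DnaJ co-chaperone of HSPA5, had 39.6 FPKM in SKBR3 knockdown cells and 76.7 in controls, and HYOU1, a nucleotide exchange factor of HSPA5, had 34.4 against 65.6. CRELD2, a stress-induced luminal protein that has ERSE in its promoter, had 9.29 FPKM against 20.03. FKBP14, a prolyl isomerase, was the 1 that rose, to 43.7 FPKM in knockdown cells against 25.4 in controls. With siRNA in HCC1954 none of 14 was called in the authors' deposited table, and none had an unadjusted p under 0.05. Of 13 tested in the shRNA clones, 6 rose and 4 fell. MANF, a stress-induced secreted protein, had 100.0 FPKM in TFAP2C shRNA clones and 47.2 in control clones, and DNAJC10, a disulfide reductase with a J domain, had 16.6 against 25.5.

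Among 13 further disulfide isomerases and oxidases, 6 fell and 2 rose in SKBR3. PRDX4, a luminal peroxiredoxin, had 79.2 FPKM in knockdown cells and 117 in controls, and PDIA3, the isomerase that works with CALR and CANX, had 91.1 against 123. ERO1A, the oxidase that recharges the isomerases, rose to 26.2 FPKM against 17.8, while the related ERO1B fell to 1.77 FPKM against 2.90. Of 12 tested in the shRNA clones, 6 rose and 5 fell, beside 75.4% of all tested genes called there. Among them were PDIA5 at 7.21 FPKM against 2.51, ERP44 at 4.76 against 12.5, and TMX3, which counts as a rise and is listed at 0 in control clones. None of 12 was called with siRNA in HCC1954, nor had any an unadjusted p under 0.05 in the authors' deposited table.

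In the calnexin cycle CANX and CALR hold glycoproteins until they are folded. In SKBR3 3 of 9 tested genes fell: the glucosidase subunits GANAB (110.1 FPKM in knockdown cells, 134 in controls) and PRKCSH (54.4 and 67.2), and the cargo receptor LMAN2 (68.04 and 90.8). In the shRNA clones 2 of 7 rose and 2 fell, and the cargo receptor LMAN1 had 36.9 FPKM in TFAP2C shRNA clones against 11.2 in control clones. With siRNA in HCC1954 0 of 8 were called in the authors' deposited table, with 1 unadjusted p under 0.05. Translocon, signal peptidase and transport-vesicle genes had 9 falls and 1 rise of 20 tested in SKBR3, led by SEC11C, a signal peptidase subunit, at 27.9 FPKM against 53.2. In the clones 9 of 19 of them fell and 4 rose, and in HCC1954 siRNA cells 0 of 19 were called, with 1 unadjusted p under 0.05.

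The degradation genes retrieve misfolded proteins from the compartment, and the sensors report them to the nucleus. In SKBR3 2 of 18 degradation genes rose (UBE2J1 and HERPUD2) and 1 fell (VCP). Among the clones 10 of 17 fell and 4 rose, beside 39.2% and 36.3% of all tested genes, with a median log2 ratio of -0.65 beside 0.00. EDEM1, which marks misfolded glycoproteins for degradation, had 4.04 FPKM in TFAP2C shRNA clones and 17.3 in control clones, and the related EDEM3 had 5.41 against 17.1. SEL1L, the scaffold of the main ubiquitin ligase complex, was the 1 gene of 17 that rose in HCC1954 with siRNA, to 24.7 FPKM against 17.6. Of all tested genes 2.31% rose there. ERN1, the gene of IRE1, rose to 13.1 FPKM in SKBR3 knockdown cells against 6.30 in controls, and was the 1 of 9 sensor genes called there. In the clones 5 of 6 tested sensor genes fell, beside 39.2% of all tested genes, including EIF2AK3 at 5.30 FPKM against 8.31 and MBTPS2, a protease that activates ATF6, at 10.8 against 29.7. MBTPS1, the other such protease, rose to 54.4 FPKM in HCC1954 cells with TFAP2C siRNA, against 31.7 with non-targeting siRNA.

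The PERK and ATF4 arm answers amino acid shortage as well as folding stress. Of 10 tested genes 8 rose and 0 fell in SKBR3, with a median log2 ratio of 0.92, and 0 was also the count of falls at an unadjusted p under 0.05. CHAC1, a glutathione-degrading enzyme induced by ATF4, had 43.5 FPKM in knockdown cells and 5.34 in controls. ATF3 had 70.0 FPKM against 30.6, PPP1R15A, which restores translation, 37.0 against 18.1, and ASNS, asparagine synthetase, 48.3 against 23.1. In HCC1954 siRNA cells 1 of 10 was called, beside 3.28% of all tested genes. It was PPP1R15A, at 98.7 FPKM in knockdown cells and 69.5 in controls. In the shRNA clones 4 of 9 rose and 3 fell: ATF4 itself had 438 FPKM in TFAP2C shRNA clones against 179.7 in control clones, ASNS 42.2 against 8.38, and CEBPB 14.1 against 168.

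Chaperones outside the endoplasmic reticulum were set beside the 10 genes. Of 15 cytosolic and mitochondrial heat shock genes, 12 rose and 2 fell in the shRNA clones, beside 36.3% and 39.2% of all tested genes. Their median log2 ratio was 0.72, beside 0.65 for the 10 genes and 0.00 over all genes. HSPD1 and HSPE1, the mitochondrial chaperonin pair, had 461 and 135 FPKM in TFAP2C shRNA clones against 134 and 42.9 in control clones, and the cytosolic HSP90AB1 had 1665 against 857. In SKBR3 3 of 15 fell and 1 rose, the small heat shock gene HSPB1, with 1042 FPKM in knockdown cells and 707 in controls, and in HCC1954 siRNA cells 0 of 15 were called, with 2 at an unadjusted p under 0.05.

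**Figure D5:**
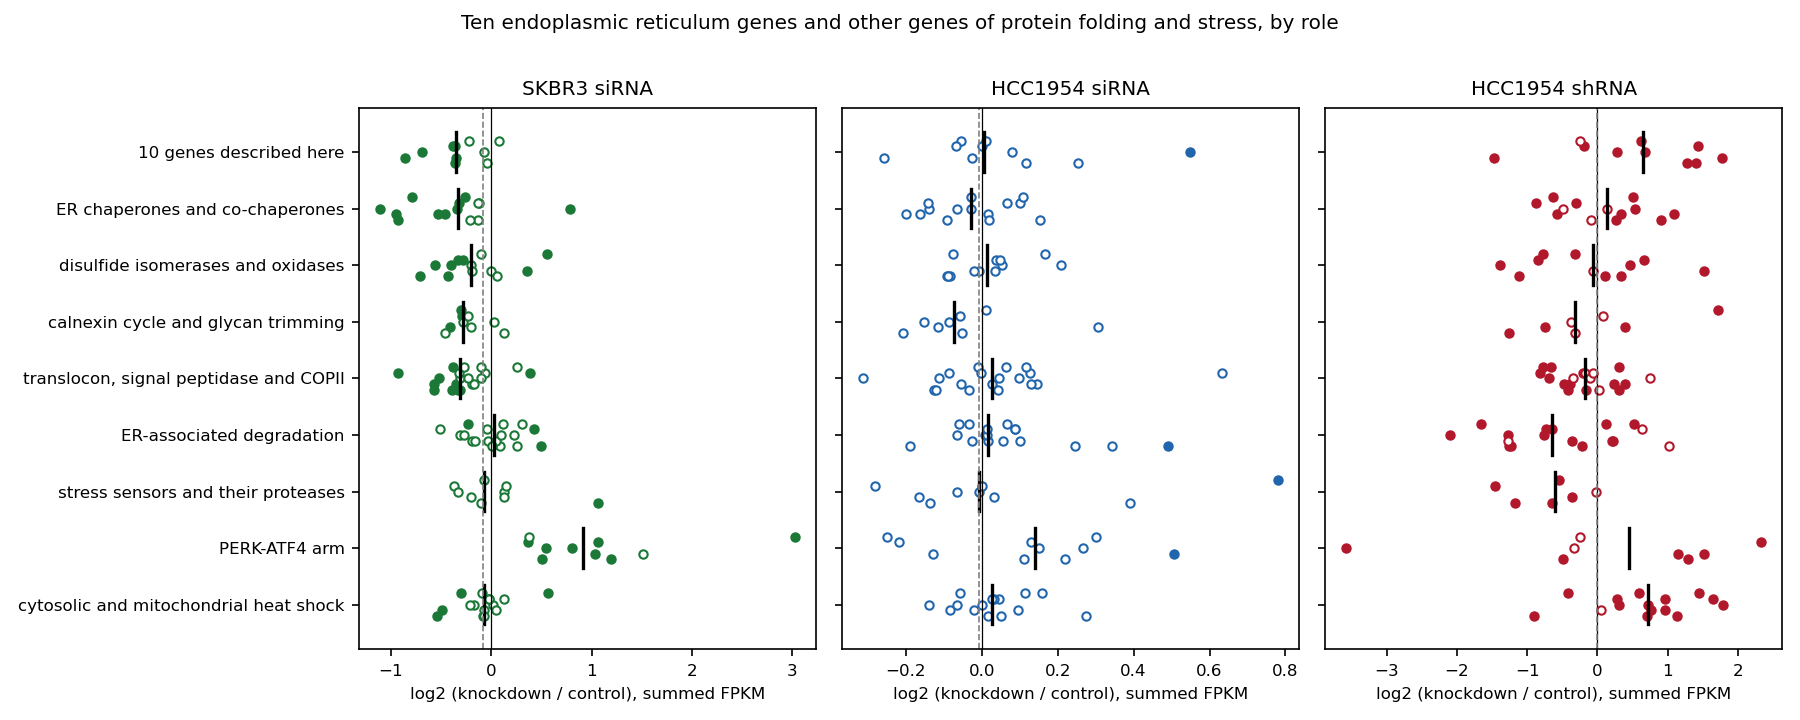
Log2 ratio of knockdown over control FPKM, summed over entries, for the tested genes of 9 groups in the SKBR3 siRNA, HCC1954 siRNA and HCC1954 shRNA comparisons, with filled points for a deposited q under 0.05, a bar at the median of each group and a dashed line at the median of all genes at or above 1 FPKM in knockdown and control. The horizontal scale differs between panels. TMX3 and VLDLR, each listed at 0 in 1 shRNA group, have no ratio there and are not drawn in that panel. In SKBR3 the 10 genes and the other chaperones have medians of -0.35 and -0.33 while the PERK and ATF4 arm has 0.92.

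XBP1 is known as one of a set of genes characteristic of luminal breast cells, and 8 others of that kind were followed beside it. In SKBR3, SPDEF had 39.3 FPKM in knockdown cells and 151.5 in controls and FOXA1 45.3 against 76.8, while GATA3 rose to 8.65 FPKM against 5.23, and of 7 tested genes 3 fell and 2 rose. In the shRNA clones 4 of 5 tested fell and none rose, and FOXA1 had 2.84 FPKM in TFAP2C shRNA clones against 80.4 in control clones. AGR2, a member of the disulfide isomerase family, had 0.0439 FPKM in TFAP2C shRNA clones and 23.0 in control clones. In HCC1954 with siRNA AGR2 rose to 69.8 FPKM against 48.0 and was the 1 called of 5, beside 3.28% of all tested genes.

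ERSE also occurs in 19 genes outside the 10, of which 10 were tested in SKBR3. There 4 fell and 0 rose, beside 21.0% and 12.3% of all tested genes, with a median log2 ratio of -0.48 beside -0.08, and 0 was also the count of rises at an unadjusted p under 0.05 in the authors' deposited table. In HCC1954 siRNA cells 0 of 10 were called in the authors' deposited table, beside 3.28% of all tested genes, with 1 unadjusted p under 0.05. In the shRNA clones 3 of 5 rose and 1 fell, beside 36.3% and 39.2% of all tested genes. The 17 other genes with ERSE-II had 5 falls and 2 rises of 13 tested in SKBR3 and 5 falls and 1 rise of 10 in the clones. These counts are small and describe the genes that were tested.

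The genes with ratios most like those of HSPA5 were found by distance over the 3 log2 ratios among 6374 genes with at least 5 FPKM in all 6 groups. They were GLG1, RPL36, GNPTAB, GTF2F1 and RPLP1, at distances of 0.0374 to 0.106, and none of them is among the 10 genes. GLG1, a Golgi membrane protein, had log2 ratios of -0.08, 0.12 and 1.38 in SKBR3 siRNA, HCC1954 siRNA and HCC1954 shRNA, beside -0.05, 0.12 and 1.40 for HSPA5. Nearest to XBP1 were MYBL2, SDHA, FKBP1A, THEM6 and RAD51AP1, at distances of 0.0603 to 0.237. MYBL2, a cell-cycle transcription factor, had -0.83, -0.31 and -1.46, beside -0.86, -0.26 and -1.47 for XBP1.

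In HCC1569 only PDIA4 of the 10 genes is in the selected table. It had 1213 FPKM with TFAP2C siRNA and 936 with non-targeting siRNA, with q = 0.349 in the authors' deposited table, beside 67.4% called of 46 tested entries. The other 9 genes were not analysed in that line. Its entries are gene symbols and not RefSeq entries, so this PDIA4 level should not be set beside those of the other lines.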

How the data were processed

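Per the labels' protocols, RNA from 24 samples in 8 groups of 3 was made into libraries with an Illumina TruSeq kit. The submitters' processing notes name Bowtie 0.12.2, Cuffdiff, hg19 and GRCh37. The 4 files are comparison tables. Per the file headers they hold the authors' FPKM, pooled over the samples of each group, a test statistic (a score of the authors' tool), a p-value and a q-value. Single samples have no column, so pairing, depth and replicate spread are unknown. Bulk values cover all reads assigned to an entry.

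Of 66321 RefSeq entries 65468 matched a symbol in NCBI's table (GRCh38.p14, used for names and promoters alone), and 853 did not. The HCC1954 siRNA table names only the siRNAs in its columns, and the line was taken from the name of the deposited file. FPKM was summed per symbol, with no pseudocount. A call is a deposited q under 0.05 of the leading entry. A standard error is the log2 ratio over the deposited statistic, and intervals are at 95%. The difference test was also tested on simulated data. Python 3.11.15, pandas 2.3.3, numpy 2.4.6 and scipy 1.17.1 were used.

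Named genes are the 10 genes, TFAP2C, up to 4 called genes per list and comparison with the largest ratio and at least 1 FPKM in both groups, genes of the marker lists, overlapping genes and the 5 nearest to HSPA5 and to XBP1. NM_ entries of HERPUD1 and CANX were chosen after their values were seen. The 10 genes and the lists were chosen with earlier results of these data known. Alternatives were the leading entry, q threshold, adjustment, filters on low FPKM, pseudocount, scaling and the source of the standard error.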

Additional observations from a re-analysis of the deposited data

Results flagged for a closer look

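In 4 of the 10 genes the log2 ratio differed between the shRNA clones and the siRNA cells of HCC1954 by the z test with adjustment over 8634 genes, of which 13.8% differed. The difference, shRNA minus siRNA, was 1.80 for HSP90B1, 1.50 for CALR and 1.28 for HSPA5, and -1.28 for XBP1. In the authors' pooled values HSP90B1 and its pseudogene together had 637 FPKM in TFAP2C shRNA clones and 193 in control clones, beside 329 and 336 FPKM in cells with TFAP2C and non-targeting siRNA. For XBP1 these were 40.0 and 110.5 FPKM in the clones and 373 and 446 FPKM in the siRNA cells. The control clones had less HSPA5, HSP90B1 (with its pseudogene) and XBP1 than the control siRNA cells, by tables that were normalized separately. CALR was not lower there, with 219 FPKM in control clones and 202.5 in control siRNA cells. In the TFAP2C shRNA clones 162 genes were under 1 FPKM while at or above 10 FPKM in each of the other 3 HCC1954 groups. For the control clones there were 12 such genes. How far the levels of the control clones, or the state of the TFAP2C shRNA clones, enter the 4 differences was not tested.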

How the results depend on the processing

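No paired analysis was possible because the deposited columns pool the 3 samples of a group, and for the same reason leaving out a replicate could not be run. Over the alternatives tried, the calls among the 10 genes stayed at 6 in SKBR3 siRNA and 1 in HCC1954 siRNA, and lay between 8 and 10 in HCC1954 shRNA. The count of 8 arose without HERPUD1, whose entry chosen within that comparison has q = 0.208 in the authors' deposited table. None of the 183 alternative ratios of single genes changed a called direction. The 33 counts over lists stayed within 1.5 times under the alternative entry, an alternative chosen after seeing the data, as was the sum of HSP90B1 and HSP90B2P. Between SKBR3 and HCC1954 siRNA the count of differing genes was 0 and became 2 where the deposited p gave the standard error. Between HCC1954 shRNA and siRNA it was 4 and became 6. The log2 ratio of the FPKM sums themselves, used as an alternative scaling, was -0.12, -0.02 and -0.10 in the SKBR3 siRNA, HCC1954 siRNA and HCC1954 shRNA tables. Depth is unknown, so no limit of detection can be given for DNAJB9 or HERPUD1 at their low levels in the clones.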
